A study of Mus musculus with 8 samples.

Results

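The mitochondrial carrier family comprises the genes named Slc25a followed by a number, together with Ucp1, Ucp2 and Ucp3. Members were taken as all protein-coding genes whose annotated symbol has either form, with Slc25a13, Slc25a15 and Slc25a20 left aside, and 47 of the 52636 genes in the liver count tables met this rule. RNA was sequenced from the livers of 8 male wild-type C57BL/6J mice, 4 in each of 2 groups, 1 library per mouse. All mice received an adeno-associated virus at 7 weeks of age, and from 8 weeks of age a diet rich in fat, fructose and cholesterol (the MASH diet, which induces metabolic dysfunction-associated steatohepatitis) for 24 weeks. Mice 303, 311, 314 and 315 received AAV8-GFP, the control virus, and mice 308, 309, 316 and 319 received AAV8-AGXT, which carries human AGXT. Both viruses use the TBG promoter, which restricts expression to hepatocytes, so both groups share the virus, the promoter and the diet, and neither includes untreated or chow-fed mice. AGXT, alanine-glyoxylate aminotransferase, clears glyoxylate, the precursor of oxalate; the transgene is human and the counts are on mouse genes, so its level was not read here. The comparison asks how overexpression of this enzyme in hepatocytes altered the liver transcriptome during steatohepatitis.

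Carriers of this family are nuclear-encoded. Most, but not all, are proteins of the mitochondrial inner membrane that exchange metabolites, nucleotides, phosphate, cofactors and metals between the matrix and the cytosol. In hepatocytes they join the citric acid cycle to fatty acid and glucose synthesis, pass reducing equivalents inward, supply amino acids to ureagenesis and return ATP to the cytosol. Uncoupling proteins belong to the same family and let protons re-enter the matrix, which in brown fat yields heat. Carriers of the inner membrane are made in the cytosol and are inserted through the TOM complex, the small TIM chaperones and the TIM22 complex.

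Promoter sequences are shown for Slc25a48, the only member that passed the test, for Slc25a47, the most abundant member, and for Slc25a5, the most abundant adenine nucleotide carrier. They are the 250 bases before the RefSeq start of each gene (assembly GRCm38.p6), 5′ to 3′, with CpG dinucleotides in capitals. The Slc25a48 sequence is chr13:56438105-56438354 on the plus strand, the Slc25a47 sequence is chr12:108850879-108851128 on the plus strand and the Slc25a5 sequence is chrX:36795347-36795596 on the plus strand. No annotated exon lies in any of the 3 windows. In the GENCODE M21 annotation Slc25a47 starts at 108836046, so its window lies inside the annotated gene. Slc25a5 starts there at 36795651, a short way past the end of its window.
Slc25a48: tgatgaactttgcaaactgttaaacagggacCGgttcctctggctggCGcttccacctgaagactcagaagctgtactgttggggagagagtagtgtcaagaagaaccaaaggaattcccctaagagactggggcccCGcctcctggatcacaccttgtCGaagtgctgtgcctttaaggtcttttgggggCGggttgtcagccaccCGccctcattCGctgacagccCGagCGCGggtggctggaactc
Slc25a47: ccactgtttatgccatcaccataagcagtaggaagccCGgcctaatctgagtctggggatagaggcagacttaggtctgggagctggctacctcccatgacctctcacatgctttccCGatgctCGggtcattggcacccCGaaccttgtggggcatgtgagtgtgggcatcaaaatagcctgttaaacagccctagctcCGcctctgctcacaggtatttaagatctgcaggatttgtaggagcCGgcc
Slc25a5: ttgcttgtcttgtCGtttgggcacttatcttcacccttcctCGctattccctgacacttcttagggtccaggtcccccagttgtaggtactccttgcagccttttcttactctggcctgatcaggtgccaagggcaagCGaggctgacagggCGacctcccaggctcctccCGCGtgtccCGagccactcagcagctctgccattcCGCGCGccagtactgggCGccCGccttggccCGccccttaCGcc
The window of Slc25a48 holds 10 CpG at a GC content of 56.4%, that of Slc25a47 holds 6 at 54.4%, and that of Slc25a5 holds 14 at 61.6%. The ratio of observed to expected CpG is 0.504, 0.324 and 0.617, in that order. Of the 3, only the Slc25a5 window is CpG-rich, meaning a ratio above 0.6 with a GC content above 50%. RefSeq promoters were matched for 36 members, with 45 start sites in all, of which 19 (42.2%) were CpG-rich against 30.8% of all 32851 promoters. The motif AGGTCA, the half-site of many nuclear receptors including PPARα, was searched on both strands and occurred in 6 of the 45 windows (13.3%) and in 14% of all promoters. It occurred once in the Slc25a47 window and not in those of Slc25a48 and Slc25a5. These matches describe letters only and were set against no binding data.

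Expression was first described by level. To compare genes with each other, CPM, which are counts per 1000000 counts on genes with libraries scaled by the trimmed mean of M values (TMM), were divided by the kilobases of annotated exon, giving RPKM. Slc25a47, a carrier expressed mainly in the liver, had the highest level with a mean of 390.3 RPKM over the 8 mice. Slc25a5, the adenine nucleotide translocase 2 that exchanges ATP for ADP, followed with 247.0 RPKM, and Slc25a39, which brings glutathione into the matrix, with 200.3 RPKM. The dicarboxylate carrier Slc25a10 was at 96.3 RPKM and the glutamate carrier Slc25a22 at 89.6 RPKM. Each of the first 3 exceeded the next member in order in 8 of 8 mice. Slc25a10 exceeded Slc25a22 in 6 of 8 mice and Slc25a22 exceeded the citrate carrier Slc25a1 (77.3 RPKM) in 5 of 8. The order of these last 3 was thus not the same in every mouse. All mice share the same gene lengths, so agreement between mice does not test the choice of length. Slc25a5 has 1646 bases of annotated exon and 1240 in its longest transcript. For Slc25a39 these are 2756 and 1685 bases, and the order of these 2 genes was not compared mouse by mouse with the longest transcript.

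These 5 members made up most of the family's level. Their share of the summed RPKM of all 47 members was 69.3 ± 3.02% in AAV8-GFP mice and 69.2 ± 3.14% in AAV8-AGXT mice (SD, n = 4 each), a gap smaller than the spread between mice. The summed level of the family was 1331 ± 153.5 RPKM in AAV8-GFP mice and 1615 ± 182.6 RPKM in AAV8-AGXT mice (SD, n = 4 each). Mice 303, 311, 314 and 315 had sums of 1497, 1269, 1149 and 1410 RPKM, and mice 308, 309, 316 and 319 had 1857, 1414, 1591 and 1599 RPKM. The groups overlapped, since AAV8-AGXT mouse 309 lay below AAV8-GFP mouse 303. These sums rest on TMM scaling, with factors of 1.021 to 1.137 in AAV8-GFP mice and 0.83 to 1.001 in AAV8-AGXT mice. A lower factor raises the CPM of a mouse, and sums with total-count scaling were not taken. Slc25a47 alone supplied between 21.1% (mouse 314) and 34.3% (mouse 303) of the sum.

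**Figure D1:**
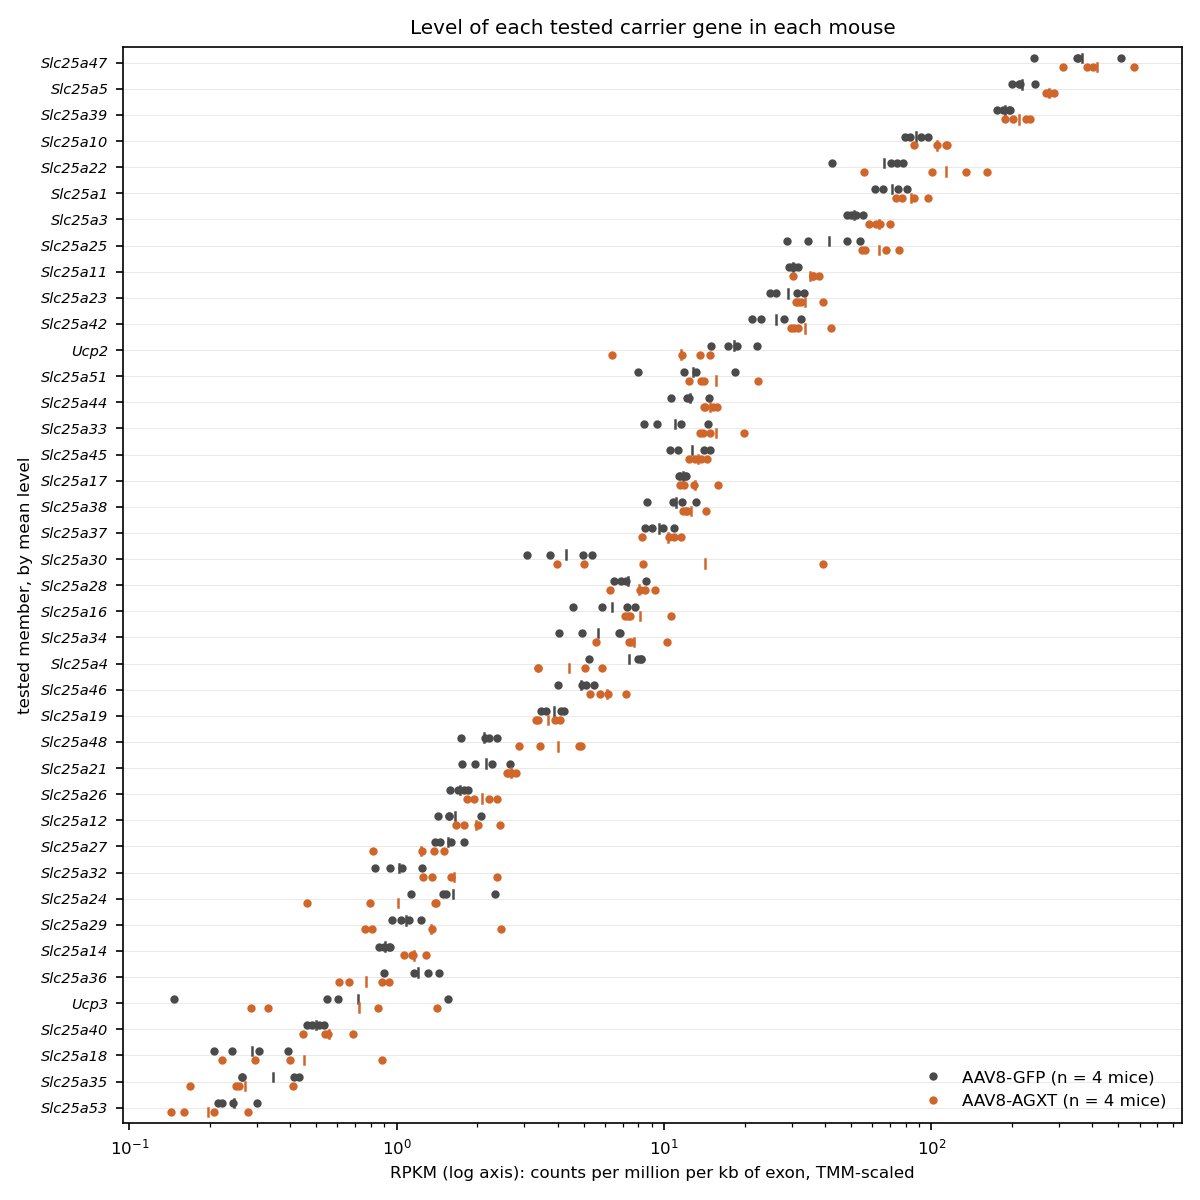
Level of the 41 tested members in each mouse, as RPKM on a log axis, ordered by mean level; grey points are AAV8-GFP mice, orange points AAV8-AGXT mice (4 each), and short bars are group means. Slc25a47, Slc25a5 and Slc25a39 lie above all others, and Slc25a30 has 1 AAV8-AGXT mouse far to the right of the other 7.

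At the other end of the range, 6 members had too few reads to be tested in the main edgeR analysis. Slc25a41 and Slc25a54 were listed at 0 in every mouse, and a floor of 3 counts over the 172212810 counts of the 8 mice corresponds to 0.0174 CPM. Ucp1, the uncoupling protein of brown fat, had 3 counts in all, with at most 2 in a mouse. Slc25a31, the testis form of the adenine nucleotide carrier, had 12 counts. Slc25a2, an ornithine carrier, had 65. Slc25a43 had 49 counts, 37 in AAV8-GFP mice (0.312 to 0.397 CPM) and 12 in AAV8-AGXT mice (0.069 to 0.205 CPM). These groups did not overlap, and the main analysis did not test the difference. With no low-count filter edgeR tested 45 members, Slc25a43 among them, and called Slc25a48 alone. Such floors cover counting error only. Of 6 markers of brown and white adipocytes, Adipoq, Lep, Plin1 and Dio2 were each under 1 CPM in every mouse. The other 2, Cidea and Ppargc1b, had 74.9 ± 65.2 against 146.2 ± 35.4 CPM (edgeR adjusted p = 0.229) and 2.48 ± 1.09 against 5.50 ± 0.91 CPM (edgeR adjusted p = 0.061; SD, n = 4 each), and neither was called.

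The groups were then compared gene by gene with edgeR's quasi-likelihood test, with adjustment over all 15248 genes tested, of which 41 were members. A single member passed an adjusted p of 0.05: Slc25a48 was higher with AAV8-AGXT. That is 2.44% of the tested members, against 2.45% of all tested genes called higher. None was called lower, against 1.90% of all genes. Without adjustment, 10 members were higher and 3 lower at p under 0.05, or 31.7% of the members against 26.2% of all genes. The share of members called was thus near that of all genes.

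The direction of the fold changes was uneven. Of the 41 tested members, 33 (80.5%) had a log2 fold change above 0, against 52.3% of all tested genes, and the median was 0.25 for members and 0.02 for all genes. When libraries were scaled by total counts in place of TMM, the median of all genes moved to -0.22 and that of the members to 0.02, with 21 members above 0 and 20 below; the gap between the members' median and that of all genes was 0.23 with TMM and 0.24 with total counts. In 6 members (14.6%) every AAV8-AGXT mouse lay above every AAV8-GFP mouse, as in 8.93% of all genes, and in 1 member (2.44%) every AAV8-AGXT mouse lay below, as in 7.63% of all genes. With the DESeq2 Wald test 5 of 42 members with an adjusted p (11.9%) were called higher, against 6.58% of all genes, and 2 (4.76%) were called lower, against 6.37%. The 5 were Slc25a5, Slc25a48, Slc25a32, Slc25a25 and Slc25a3, and the 2 were Slc25a4 and Slc25a36. With limma-voom, 1 member was called higher and 0 lower, as with edgeR.

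Depth and the summed levels of some cell type markers differed between the groups. Counts on genes ranged from 19747909 to 28780140 in AAV8-GFP mice and from 17095433 to 23940200 in AAV8-AGXT mice, and mouse 308 had the lowest share of tallies on genes, 56.3%. That mouse was the highest of the 8 for 16 of the 41 tested members and the lowest for 6. Summed CPM of 7 hepatocyte markers was 44921 to 53966 in AAV8-GFP mice and 54536 to 77052 in AAV8-AGXT mice. The groups did not overlap, but the gap between 53966 and 54536 was narrow. It rests on TMM scaling, and sums with total-count scaling were not taken. All 7 log2 fold changes, which also rest on TMM scaling, were above 0, against 52.3% of all tested genes. Cps1, 1 of the 7 (14.3%), was called higher and had groups apart. Of all tested genes, 2.45% were called higher and 8.93% had every AAV8-AGXT mouse above every AAV8-GFP mouse. The groups overlapped for the other markers, including the most abundant, Alb (means 29998 against 37995 CPM, edgeR adjusted p = 0.283) and Apoa1 (11425 against 15659 CPM, edgeR adjusted p = 0.171). Summed CPM of 6 stellate cell markers was 305.2 to 592.1 against 107.8 to 311.6, that of 5 cholangiocyte markers 224.5 to 673.1 against 74.1 to 272.5, that of 10 macrophage and Kupffer cell markers 280.3 to 423.7 against 180.8 to 632.9, that of 8 T, B and NK cell markers 14.1 to 21.2 against 7.18 to 14.7, and that of 5 endothelial markers 109.8 to 164.3 against 112.8 to 214.7. The largest part of the cholangiocyte sum was Spp1 (means 484 against 157.1 CPM), and all 5 cholangiocyte fold changes were below 0. The largest parts of the stellate sum were Col3a1 (190.7 against 73.7 CPM) and Col1a1 (142.9 against 41.7 CPM). Of the 6 stellate fold changes 4 were below 0, and the 2 above were Lrat and Reln, at 0.107 and 0.222 on the log2 scale. None of these stellate, cholangiocyte, macrophage, lymphoid and endothelial markers was called in edgeR. In RNA of whole liver, fewer cells of a type and less RNA per cell cannot be told apart, and the part of cell composition in the results below was not tested.

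**Figure D2:**
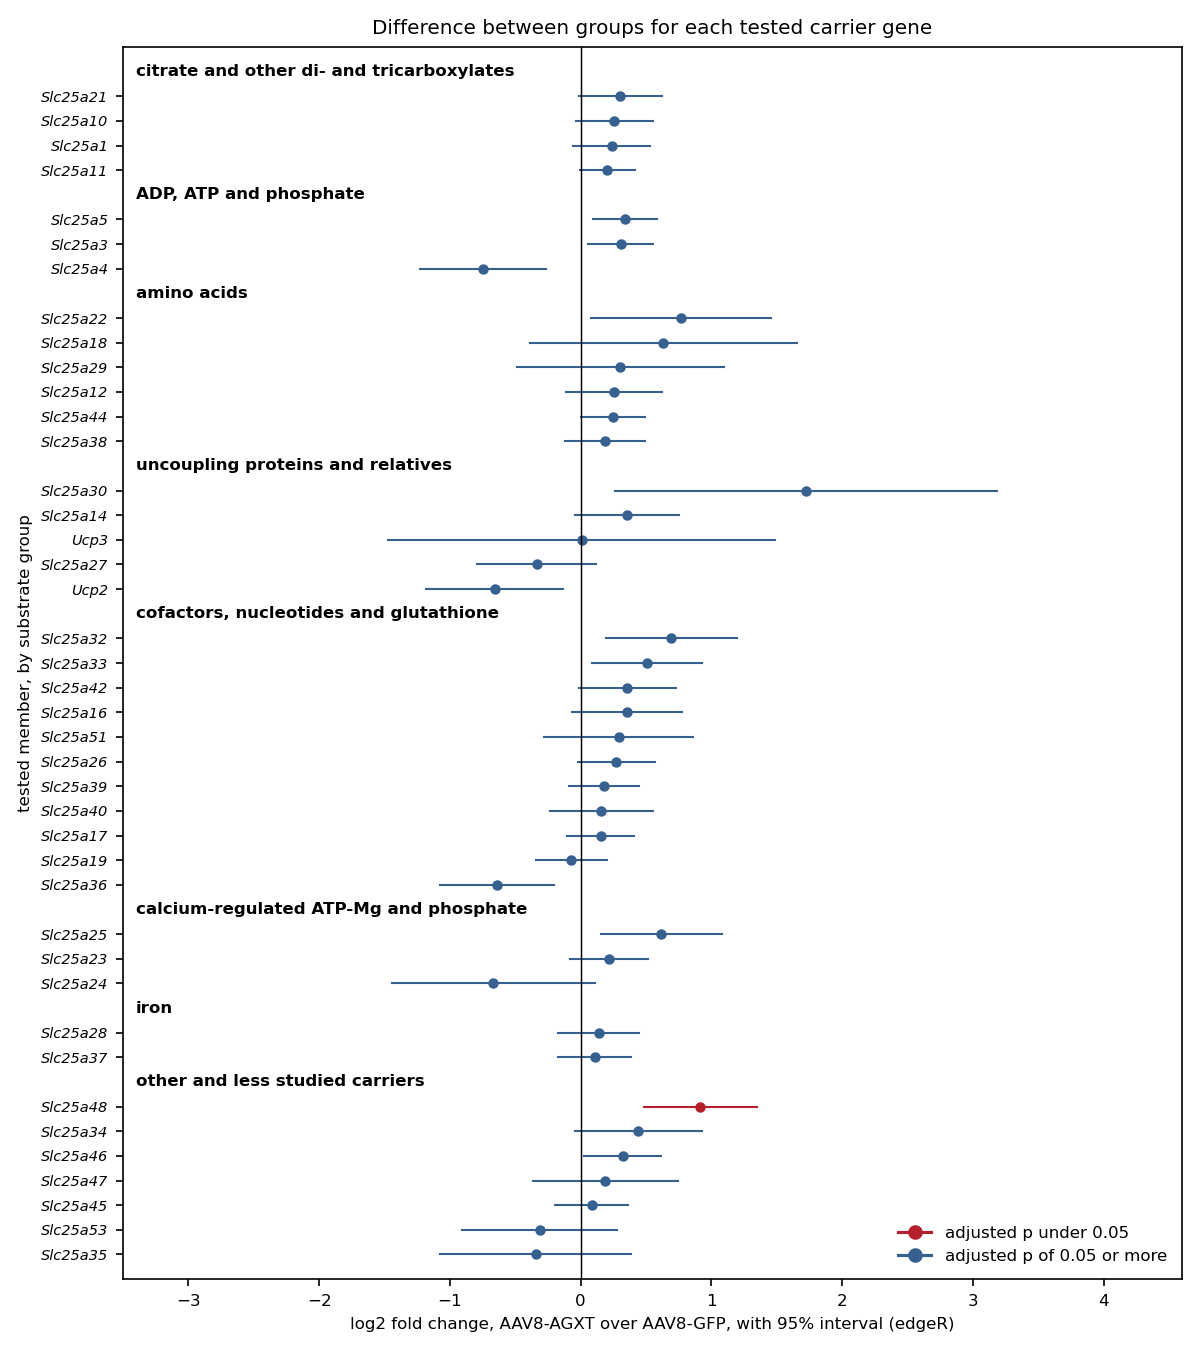
Log2 fold change of each tested member, AAV8-AGXT over AAV8-GFP, from edgeR with its 95% interval, in groups by substrate; red marks an adjusted p under 0.05. Slc25a48 is the one red point, 33 of 41 points lie to the right of 0, and the intervals of Slc25a4, Slc25a36 and Ucp2 lie wholly to its left.

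The member called, Slc25a48, imports choline into mitochondria, where choline is oxidized to betaine. It was a scarce transcript, at 3.06 RPKM on average. Mice 303, 311, 314 and 315 of the AAV8-GFP group had 5.86, 7.50, 7.20 and 8.03 CPM, and mice 308, 309, 316 and 319 of the AAV8-AGXT group had 16.4, 9.68, 11.6 and 16.2 CPM. The lowest AAV8-AGXT mouse thus lay above the highest AAV8-GFP mouse, and mice 308 and 319 were the highest. The means were 7.15 ± 0.92 CPM and 13.5 ± 3.38 CPM (SD, n = 4 each), a 1.89-fold difference. On the log2 scale this was 0.92 with an SE of 0.20 and a 95% interval of 0.48 to 1.35 (edgeR adjusted p = 0.0388). Leaving out 1 mouse kept the log2 fold change between 0.80 and 1.03, but without mouse 303, 311, 314, 308 or 319 the adjusted p of edgeR lay between 0.0745 and 0.135. The lowest log2 fold change of the 16 alternatives was 0.66, with total-count scaling (edgeR adjusted p = 0.0501). Over all 16 alternatives the adjusted p ranged from 0.000859, with DESeq2, to 0.135.

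Slc25a47, which sits beside Slc25a48 in the family's numbering and has the highest level of all members, did not pass the test. AAV8-GFP mice had 1531, 1048, 723.3 and 1051 CPM and AAV8-AGXT mice 1706, 925.6, 1199 and 1136 CPM, in the order of mouse numbers given for Slc25a48. The groups overlapped over most of their range, with mice 303 and 308 the highest of each group. Its log2 fold change was 0.19 (SE 0.25, edgeR adjusted p = 0.668), and it was -0.07 with total-count scaling and -0.02 without mouse 308.

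Carriers of ADP, ATP and phosphate supply the ATP synthase with its substrates and export its product. Of the 3 tested, 0 were called in edgeR and all 3 were under 0.05 before adjustment, 2 higher and 1 lower. Slc25a5 was at 354.2, 330.7, 349.6 and 400.4 CPM in the AAV8-GFP mice and at 452.3, 471.4, 452.0 and 441.7 CPM in the AAV8-AGXT mice. Slc25a3, which imports phosphate, was at 290.0, 268.1, 278.2 and 306.5 CPM against 389.4, 322.9, 344.7 and 356.8 CPM. For both genes the groups did not overlap, and the differences were small against the level. Their log2 fold changes were 0.34 (SE 0.11, edgeR adjusted p = 0.0941) for Slc25a5 and 0.31 (SE 0.11, edgeR adjusted p = 0.121) for Slc25a3, and both were nearer 0 with total-count scaling, at 0.11 and 0.07.

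Slc25a4, the adenine nucleotide translocase 1 that predominates in heart and skeletal muscle, had a fold change of the opposite sign. It was at 19.3, 18.8, 19.3 and 12.4 CPM in mice 303, 311, 314 and 315 and at 7.94, 11.9, 13.8 and 7.98 CPM in mice 308, 309, 316 and 319. Mouse 315 was well below the other AAV8-GFP mice and within the range of the AAV8-AGXT mice, so the groups overlapped. The log2 fold change was -0.75 (SE 0.22, edgeR adjusted p = 0.0754), and without mouse 315 it was -0.88 (edgeR adjusted p = 0.049); over the alternatives the adjusted p ranged from 0.0196 to 0.209. All 8 markers of skeletal and heart muscle, Ckm, Acta1 and Mb among them, were under 1 CPM in every mouse, and 4 of them were at 0 in all mice.

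Uncoupling proteins and their close relatives had no member called in edgeR, with 1 of 5 higher and 1 lower before adjustment. Ucp2, which is found in macrophages and other immune cells as well as in fatty hepatocytes, was at 130.7, 154.9, 121.1 and 104.8 CPM in AAV8-GFP mice and 44.7, 81.4, 94.96 and 103.6 CPM in AAV8-AGXT mice. It was the single one of the 41 tested members whose AAV8-AGXT mice all lay below the AAV8-GFP mice, with mouse 308 the lowest and mouse 319 just under mouse 315. Its log2 fold change was -0.66 (SE 0.24, edgeR adjusted p = 0.119). Of the 10 macrophage and Kupffer cell markers, 5 had log2 fold changes above 0 and 5 below, and 0 were called in edgeR. Cd68 and Itgam lay lower in all AAV8-AGXT mice, at -1.001 (edgeR adjusted p = 0.111) and -1.01 (edgeR adjusted p = 0.10), and Marco lay higher in all of them, at 3.63 (edgeR adjusted p = 0.0801). An exon of a gene on the opposite strand covers 4.36% of the exon length of Ucp2.

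Ucp3, the form known from muscle and brown fat, was scarce and differed mainly between mice. Its values were 4.88, 1.90, 0.461 and 1.72 CPM in AAV8-GFP mice and 0.898, 4.45, 2.67 and 1.04 CPM in AAV8-AGXT mice. Mice 303 and 309, 1 of each group, were the highest. The log2 fold change of 0.01 (SE 0.66, 95% interval -1.47 to 1.49) leaves differences of over 2-fold either way within reach, and its sign changed under 10 of 16 other settings.

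Slc25a30, a relative of the uncoupling proteins known as kidney mitochondrial carrier protein 1, had the largest fold change of the tested members, and it came from 1 mouse. AAV8-GFP mice had 17.2, 22.7, 24.6 and 13.98 CPM, and AAV8-AGXT mice 308, 309, 316 and 319 had 18.2, 179.9, 38.1 and 22.9 CPM. Only mouse 309 stood far from the rest. The log2 fold change was 1.72 with an SE of 0.66 (edgeR adjusted p = 0.137), and without mouse 309 it was 0.42 (edgeR adjusted p = 0.364), within a range of 0.0948 to 0.364 over the alternatives. Slc25a14, the other carrier of this group with no overlap, ranged from 2.03 to 2.23 CPM against 2.52 to 3.04 CPM, with a log2 fold change of 0.35 (edgeR adjusted p = 0.244).

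Of the carriers of amino acids, 0 of 6 were called in edgeR and 2 were higher before adjustment; all 6 fold changes were above 0, from 0.18 to 0.77 on the log2 scale. Slc25a22 imports glutamate with a proton. It was at 467.9, 423.9, 253.6 and 443.9 CPM in AAV8-GFP mice and at 967.4, 334.1, 803.8 and 602.4 CPM in AAV8-AGXT mice. Mouse 309 lay among the AAV8-GFP mice and mouse 308 was the highest. The log2 fold change was 0.77 (SE 0.31, edgeR adjusted p = 0.154), which became 0.97 (edgeR adjusted p = 0.0538) without mouse 309 and 0.53 (edgeR adjusted p = 0.325) without mouse 308, the lowest and highest p of the alternatives. The aspartate-glutamate carrier Slc25a12 of the malate-aspartate shuttle was at 12.2 ± 2.1 against 14.5 ± 2.52 CPM (SD, n = 4 each), with a log2 fold change of 0.26 (edgeR adjusted p = 0.347).

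Carriers of di- and tricarboxylates, which export citrate for fatty acid synthesis and exchange malate, succinate and oxoglutarate, had 0 of 4 called in edgeR and 0 under 0.05 before adjustment. Their log2 fold changes were close together, from 0.21 to 0.30. The dicarboxylate carrier Slc25a10 was at 334.0, 274.7, 288.0 and 315.6 CPM in AAV8-GFP mice and at 392.3, 296.8, 363.1 and 396.8 CPM in AAV8-AGXT mice. Mouse 309 fell within the AAV8-GFP range and the other AAV8-AGXT mice above it. Its log2 fold change was 0.26 (SE 0.13, edgeR adjusted p = 0.247), and that of the citrate carrier Slc25a1 was 0.24 (SE 0.13, edgeR adjusted p = 0.28). With total-count scaling the log2 fold change of Slc25a10 was 0.015. For Slc25a10 and the oxoglutarate carrier Slc25a11, exons of genes on the other strand cover 6.60% and 8.92% of the exon length; the strand setting of the counting is not given in the sources used here.

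Carriers of cofactors, nucleotides and glutathione formed the largest group, with 0 of 11 called in edgeR, 2 higher and 1 lower before adjustment, and 9 fold changes above 0. Slc25a32, which carries folate and FAD into mitochondria, was at 5.04, 5.76, 7.57 and 6.35 CPM in AAV8-GFP mice and at 8.22, 14.5, 7.60 and 9.67 CPM in AAV8-AGXT mice. The groups met without overlapping, at 7.57 and 7.60 CPM, and mouse 309 was the highest. The log2 fold change was 0.70 (SE 0.23, edgeR adjusted p = 0.0933), and without mouse 309 it was 0.45.

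Slc25a36 and Slc25a33, a pair that carries pyrimidine nucleotides for mitochondrial DNA and RNA, had fold changes of opposite sign. Slc25a36 was at 11.1, 13.9, 12.6 and 8.60 CPM in AAV8-GFP mice and at 6.35, 8.95, 8.42 and 5.85 CPM in AAV8-AGXT mice. Slc25a33 was at 17.7, 15.8, 21.9 and 27.5 CPM against 37.5, 26.4, 28.0 and 25.7 CPM. In both genes mouse 315 lay within the range of the AAV8-AGXT mice and the other 3 AAV8-GFP mice did not. Their log2 fold changes were -0.64 (SE 0.20, edgeR adjusted p = 0.0825) for Slc25a36 and 0.50 (SE 0.19, edgeR adjusted p = 0.131) for Slc25a33. An exon of a gene on the opposite strand covers 14.9% of the exon length of Slc25a33.

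Slc25a39, the abundant glutathione carrier, was at 543.7, 483.0, 510.7 and 535.8 CPM in AAV8-GFP mice and 643.4, 519.0, 557.7 and 622.5 CPM in AAV8-AGXT mice. Mouse 309 again fell among the AAV8-GFP mice. Its log2 fold change was 0.18 (SE 0.12, edgeR adjusted p = 0.379) with TMM and -0.07 with total-count scaling. Slc25a42, a coenzyme A carrier, had 157.3 ± 30.2 against 201.3 ± 34.3 CPM (SD, n = 4 each), with a log2 fold change of 0.36 (edgeR adjusted p = 0.208). Slc25a51, which imports NAD, had 70.7 ± 23.7 against 86.4 ± 25.2 CPM, with a log2 fold change of 0.29 (edgeR adjusted p = 0.505).

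Calcium-regulated carriers exchange ATP-Mg for phosphate and set the adenine nucleotide content of the matrix. Of 3 tested, 0 were called in edgeR and 1 was higher before adjustment. Slc25a25 was at 271.9, 381.5, 227.5 and 423.4 CPM in AAV8-GFP mice and at 442.9, 431.5, 533.2 and 592.1 CPM in AAV8-AGXT mice. The groups did not overlap, and mouse 315 lay close under the lowest of the AAV8-AGXT group. Slc25a25 had a log2 fold change of 0.62 (SE 0.21, edgeR adjusted p = 0.103). Slc25a24, its scarcer relative, had 5.55 ± 1.73 against 3.48 ± 1.59 CPM (SD, n = 4 each), with a log2 fold change of -0.67 (SE 0.35, edgeR adjusted p = 0.257).

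Both iron carriers, the mitoferrins Slc25a37 and Slc25a28, which feed heme and iron-sulphur cluster synthesis, were tested, and 0 of 2 were called or under 0.05 before adjustment. Their log2 fold changes were 0.11 and 0.14, with 95% intervals of -0.17 to 0.38 and -0.17 to 0.45. Slc25a46, an outer membrane member linked to mitochondrial shape, was at 26.7, 21.8, 29.7 and 27.7 CPM in AAV8-GFP mice and 39.1, 33.5, 31.2 and 28.6 CPM in AAV8-AGXT mice. Mouse 319 alone lay within the AAV8-GFP range. Its log2 fold change was 0.32 (SE 0.13, edgeR adjusted p = 0.157), and 0.08 with total-count scaling. The rest of the less studied carriers, Slc25a34, Slc25a35, Slc25a45 and Slc25a53, had log2 fold changes from -0.35 to 0.44, and none was under 0.05 before adjustment. Exons of genes on the opposite strand cover 31.3% of the exon length of Slc25a35, the carrier at -0.35, and 7.06% of that of Slc25a46.

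**Figure D3:**
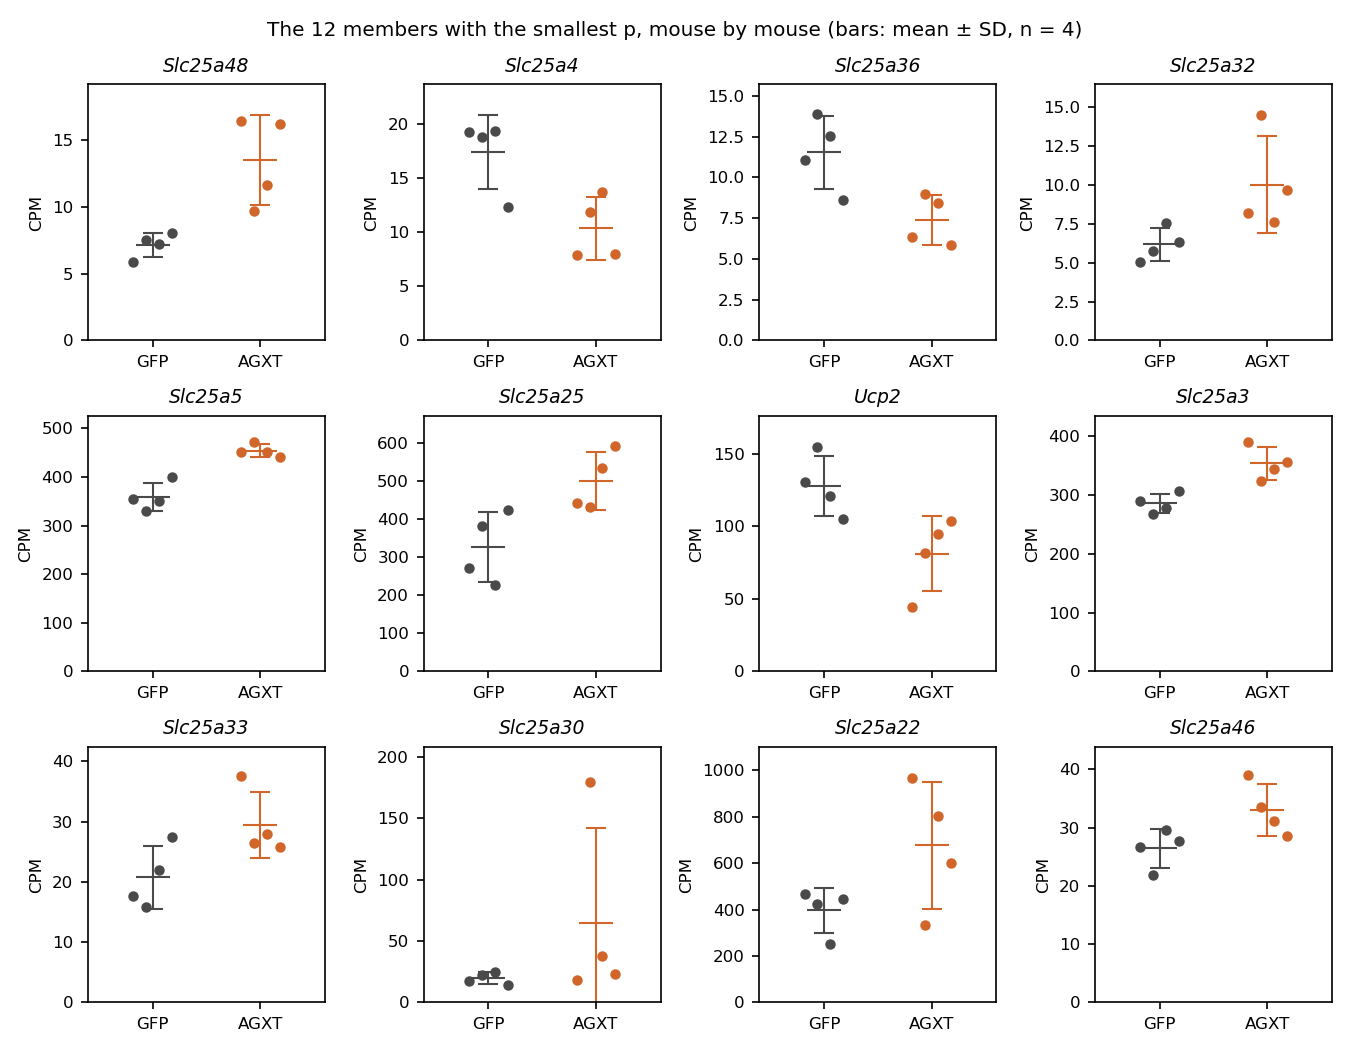
CPM of the 12 members with the smallest p in edgeR, in order, for each AAV8-GFP (grey) and AAV8-AGXT (orange) mouse; horizontal bars are means and error bars SD of 4 mice, with the lower error bar of Slc25a30 running below the axis. The groups are apart for Slc25a48, Slc25a32, Slc25a5, Slc25a25, Ucp2 and Slc25a3, and the mean of Slc25a30 rests on the mouse at 179.9 CPM.

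Related carriers, of like sequence or like substrate, were then compared within each mouse, as the log2 ratio of their CPM. With 0.5 CPM added to each, the measure is free of library scaling apart from that offset. Among 12 pairs tested by permuting the mice in all 70 ways (exact permutation test, two-sided), 0 had an adjusted p under 0.05 after adjustment over the pairs. The smallest p that 4 mice against 4 allow is 0.0286, and 1 pair reached it. This was Slc25a4 to Slc25a5, the 2 adenine nucleotide translocases. Slc25a4 CPM as a fraction of Slc25a5 CPM was 0.0558, 0.0583, 0.0566 and 0.032 in mice 303, 311, 314 and 315 and 0.0186, 0.0263, 0.0315 and 0.0192 in mice 308, 309, 316 and 319. The groups did not overlap, although mice 315 and 316 lay next to each other. The mean log2 ratio was -4.34 ± 0.42 in AAV8-GFP mice and -5.42 ± 0.37 in AAV8-AGXT mice (SD, n = 4 each), a difference of -1.08 (exact permutation p = 0.0286, 0.206 after adjustment over the 12 pairs).

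The ratio of Slc25a33 to Slc25a36 was 1.57, 1.14, 1.72 and 3.07 in AAV8-GFP mice and 5.54, 2.85, 3.19 and 4.13 in AAV8-AGXT mice. Mouse 315 exceeded mouse 309, and the groups otherwise lay apart. Its log2 ratio differed by 1.12 (exact permutation p = 0.0571, adjusted p = 0.206). Slc25a24 to Slc25a25 differed by -1.31 (exact permutation p = 0.0571, adjusted p = 0.206) and Slc25a47 to Slc25a48 by -0.64 (exact permutation p = 0.0857, adjusted p = 0.206), the latter by -0.38 without mouse 303. By contrast, the ratio of Slc25a10 to Slc25a11 stayed between 4.21 and 5.11 in all 8 mice, and its log2 value differed by 0.05 (exact permutation p = 0.486, adjusted p = 0.617).

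**Figure D4:**
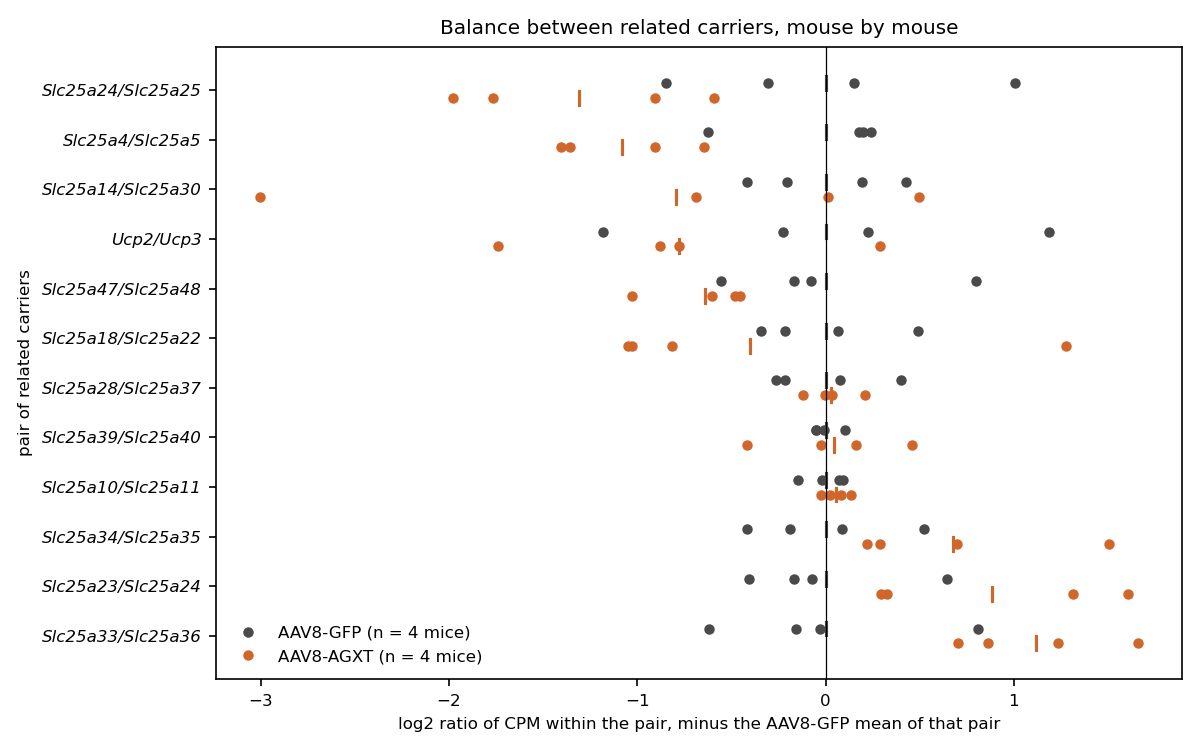
Log2 ratio of CPM within each of 12 pairs of related carriers, for each mouse, after subtraction of the AAV8-GFP mean of that pair; points are mice (4 per group) and short bars are group means. The groups are apart for Slc25a4 to Slc25a5 only, and Slc25a10 to Slc25a11 shows the tightest cluster of points.

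Genes that work with the carriers were read from lists of their pathways. For the import of carriers through TOM and TIM22, 2 of 13 genes were called higher and 0 lower in edgeR, and 11 of 13 fold changes were above 0, with a median of 0.23. The 2 are 15.4% of the list; of all tested genes, 2.45% were called higher, 1.90% lower and 52.3% had a fold change above 0. Timm29, a subunit of the TIM22 complex, had 32.7 ± 2.76 against 46.9 ± 6.86 CPM (SD, n = 4 each), with a log2 fold change of 0.52 (SE 0.12, edgeR adjusted p = 0.0461). Tomm70a, the receptor that recognises carriers at the outer membrane, had 71.1 ± 6.26 against 100.4 ± 12.7 CPM (SD, n = 4 each), with a log2 fold change of 0.50 (SE 0.12, edgeR adjusted p = 0.0481). In both genes every AAV8-AGXT mouse lay above every AAV8-GFP mouse. Both calls lay near the threshold, and 0 of the 13 were called when mouse 303, 311, 314, 315, 308 or 319 was left out.

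Other transport proteins of the mitochondrial membranes, such as the pyruvate carrier, the calcium uniporter and the porins, had 0 of 18 called in edgeR and 3 with DESeq2, with a median log2 fold change of 0.13; DESeq2 called 6.58% of all genes higher and 6.37% lower. Of 9 enzymes of the malate-aspartate, glycerol phosphate and citrate-malate shuttles, 1 (11.1%) was called higher and 0 lower in edgeR, against 2.45% and 1.90% of all genes. This was Got1, the cytosolic aspartate aminotransferase, at 94.2 ± 12.6 against 206.5 ± 81.3 CPM (SD, n = 4 each), with a log2 fold change of 1.13 (SE 0.24, edgeR adjusted p = 0.0374). Of 8 enzymes of heme synthesis, 2 (25%) were called higher and 0 lower in edgeR, against the same 2.45% and 1.90%. The 5 erythroid markers tested all had log2 fold changes above 0, with a median of 0.57 and 0 called, and their summed level was 86.4 to 144.8 CPM in AAV8-GFP mice and 114.2 to 302.3 CPM in AAV8-AGXT mice; their part in the heme results was not tested. Alas1, the rate-limiting enzyme, had 540.8 ± 156.4 against 1292 ± 338.6 CPM, a log2 fold change of 1.26 (SE 0.26, edgeR adjusted p = 0.0366). Cpox, coproporphyrinogen oxidase of the intermembrane space, had 95.6 ± 19.5 against 176.9 ± 23.8 CPM, a log2 fold change of 0.89 (SE 0.16, edgeR adjusted p = 0.0312). Got1 was not called without mouse 303, 311, 314, 315 or 319; of the heme enzymes, 0 were called without mouse 311, 314 or 319 and 1 without mouse 303 or 308. The 13 mRNAs encoded by mitochondrial DNA had 0 called in edgeR and 0 with DESeq2. Of their fold changes 12 were above 0, with a median of 0.20, against 52.3% of all tested genes above 0. Their summed level was 37542 to 45538 CPM in AAV8-GFP mice and 34203 to 51506 CPM in AAV8-AGXT mice. Some varied widely between mice, such as mt-Co2 at 197.6 ± 205.5 against 583.8 ± 1124 CPM (SD, n = 4 each), which the sum does not show. The log2 fold change of mt-Co2 was 1.56 with an SE of 1.61, so its sign is uncertain. Others were near 0, such as mt-Nd2 at 0.012 and mt-Cytb at -0.002.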

How the data were processed

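Liver RNA of 8 mice was sequenced as paired-end stranded mRNA libraries. Per the study's methods and the submitters' processing notes, the authors trimmed reads with Trimmomatic 0.35, aligned them to GRCm38 with HISAT2 2.1.0.13 and counted them on genes of Ensembl release 90 with HTSeq-count 0.6.0; the strand setting is not given in the sources used here. The deposited values are raw counts per gene, without normalization, and read pairs aligned at several places were tallied apart, which lowers counts of genes with near copies. Gene symbols, coordinates and exon lengths came from GENCODE M21 (GRCm38, Ensembl release 96), which matched 52489 of the 52636 genes; promoters came from RefSeq.

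Counts were analysed in R 4.3.3 with edgeR 4.0.16 (filterByExpr, TMM, quasi-likelihood F-test, treatment as the only term) with Benjamini-Hochberg adjustment over 15248 genes; CPM are TMM-scaled, and the standard error is the unshrunken coefficient divided by the root of F. The fit was tested on simulated data. Alternatives were DESeq2 1.42.0, limma-voom 3.58.1, robust estimation, other scalings and filters, and leaving out each mouse. Mice were grouped by the labels, p-values measure the spread between mice, and no sample was left out. The common biological coefficient of variation was 23.3%.

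Values in every mouse are given for members past an adjusted p of 0.05, for further members in order of p up to 12, for the 5 of highest level per length and for the uncoupling proteins; of the pathway lists, genes past that threshold are named. Other genes named beside these, and the markers Cd68, Itgam and Marco, were chosen after their values were seen. The members, lists and pairs were chosen with earlier results of these data known.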

Additional observations from a re-analysis of the deposited data

Results flagged for a closer look

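In 4 of 56 groups of 4 mice examined, 1 mouse lay farther from the others than Dixon's 95% critical value allows, a flag that chance raises in about 1 of 20 groups. Slc25a30 in AAV8-AGXT mice had mouse 309 at 179.9 CPM, with the other 3 at 18.2 to 38.1 CPM. Slc25a4 in AAV8-GFP mice had mouse 315 at 12.4 CPM, with the other 3 at 18.8 to 19.3 CPM. The same mouse stood apart in the log2 ratio of Slc25a4 to Slc25a5, at -4.96 against -4.16 to -4.10. In the log2 ratio of Slc25a18 to Slc25a22, both glutamate carriers, AAV8-AGXT mouse 309 was at -7.26 and the other 3 at -9.59 to -9.35. Slc25a18 was at 1.68 CPM in that mouse and at most 0.759 CPM in the others, and had at most 28 counts in a mouse. Slc25a22 was at 334.1 CPM in mouse 309 and at 602.4 to 967.4 CPM in the other 3.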

How the results depend on the processing

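Slc25a48 was called higher in the main edgeR analysis and in 10 of 16 alternatives, and the count of members called higher was 5 with DESeq2, 0 with total-count scaling and between 0 and 1 when 1 mouse was left out. The count called lower was 0, 2 with DESeq2 and between 0 and 1 when 1 mouse was left out, the 1 being Slc25a4 without mouse 315. Over all genes, 374 were called higher and 290 lower, against 1068 and 1033 with DESeq2, 144 and 857 with total counts, 2 and 0 without mouse 311, 11 and 4 without mouse 314 and 12 and 2 without mouse 319. The cause of these differences was not tested. The sign turned for Slc25a47 with total counts (-0.065; -0.017 to 0.40 when a mouse was left out), for Slc25a39 with total counts (-0.067) and for Ucp3, whose log2 fold change of 0.01 was -0.007 with median-of-ratios factors, -0.064 with upper-quartile factors, -0.19 with total counts, -0.016 without a filter, -0.034 with at least 10 counts in every mouse and between -0.56 and 0.72 when a mouse was left out. Calls in the pathway lists ranged over the alternatives from 0 to 4 for carrier import, 0 to 3 for other transport proteins, 0 to 2 for shuttle enzymes and 0 to 3 for heme synthesis. The share of the family level in its 5 most abundant members was 70.9% with the length of the longest transcript, where Slc25a25 took the place of Slc25a22, and 68.6% to 69.8% when a mouse was left out. No difference of pair ratios moved by more than the larger of its group SDs, although that of Slc25a47 to Slc25a48 went from -0.64 to -0.38 without mouse 303. No paired analysis was possible because the groups share no animal numbers. With 3 mice in a group the exact permutation test cannot go below 0.0571. Members under 1 CPM rest on few reads, and the 6 left untested have no test of their difference in the main analysis. With no low-count filter 45 members were tested in edgeR, and Slc25a48 alone was called.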
